A study of Mus musculus with 6 samples.

Results

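The expression of 8 long noncoding RNAs was followed in mouse livers given a high dose of acetaminophen (APAP), which is toxic to hepatocytes. The 8 genes, Neat1, Malat1, Gas5, Snhg1, Snhg8, Snhg12, H19 and Meg3, were taken by name from a deposited expression table of 28476 genes, and all 8 were found. Of these, 7 passed the filter on low values (a mean of at least 0.5 FPKM, a count of fragments scaled to transcript length and library size, over the 6 libraries) and were tested together with 12712 genes in all. Meg3 was under the filter and is given by its values alone. The rule that chose them uses no measured value.

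All animals were C57BL/6 mice that were fasted overnight and received 300 mg/kg acetaminophen intraperitoneally 24 h before the liver was taken. One group of 3 libraries has the genotype Flox and the other group of 3 the genotype Nedd4 HepKO, called HepKO here. The series title concerns the ubiquitin ligase NEDD4-1 in this injury, so the comparison is of the knockout with its floxed control, both under the drug. The labels give neither the age and sex of the mice nor the promoter that drove the deletion, and whether a library stands for a single mouse is not stated. Each p-value therefore reflects how far these libraries spread, which may be technical. Livers without acetaminophen are not analysed here.

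Long noncoding RNAs act as RNA and are not translated into a known protein. Neat1 is the scaffold on which paraspeckles assemble, nuclear bodies that hold RNA-binding proteins, and Malat1 is a neighbouring transcript found in nuclear speckles, where splicing factors gather. Gas5, Snhg1, Snhg8 and Snhg12 are host genes of small nucleolar RNAs (snoRNAs): the snoRNAs, which guide chemical modification of ribosomal RNA, lie in introns, while the spliced exons are known to turn over quickly through nonsense-mediated decay. H19 and Meg3 are imprinted genes, read from the maternal chromosome, which are high in fetal tissues and largely silenced in the adult liver.

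Neat1 and Malat1 differ from most messenger RNAs at their 3′ ends, which matters for libraries made from poly(A) RNA, so these ends are shown here from the GENCODE M21 transcripts. The short and the long isoform of Neat1 share their 5′ part: the short isoform, of 3004 nt, spans bases 3 to 3172 of the long isoform, of 20771 nt. In the short isoform and at the annotated end of the longest Malat1 transcript (6983 nt), the capitals mark the poly(A) signal AATAAA, searched on the transcript strand. In the long isoform and inside Malat1, they mark a stretch of 16 bases that both transcripts share, followed by an A-rich tract.
Neat1 short isoform, bases 2945 to 3004: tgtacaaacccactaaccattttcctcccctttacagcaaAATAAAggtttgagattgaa
Neat1 long isoform, bases 20712 to 20771: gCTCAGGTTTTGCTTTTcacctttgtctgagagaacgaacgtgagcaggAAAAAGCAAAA
Malat1, bases 6634 to 6705: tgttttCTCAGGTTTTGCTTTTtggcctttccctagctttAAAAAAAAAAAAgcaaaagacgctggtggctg
Malat1, bases 6924 to 6983: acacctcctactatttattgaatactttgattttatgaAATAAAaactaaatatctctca
The shared stretch of 16 bases was present in 2 of 141770 GENCODE M21 transcripts, which are these 2. AATAAA was found in the last 60 bases of 27.2% of the 141520 transcripts of at least 60 nt, in 1 of the 4 Neat1 transcripts and in 3 of the 4 Malat1 transcripts. As background, both tracts are known to fold into a triple helix that protects an end made by RNase P cleavage, in place of a poly(A) tail. Inside Malat1 the tract of 12 A bases lies ahead of the annotated end. The deposited values are per gene and do not separate the isoforms.

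The start sites of the 4 snoRNA host genes are shown because such genes are known, as background, to begin with a run of C and T (a 5′ terminal oligopyrimidine tract) like the genes of ribosomal proteins. The windows run from 40 bases before to 50 bases from the annotated start on, and were taken from the RefSeq promoter table (GRCm38.p6). Capitals mark the longest run of C and T that comes within 3 bases of the start. RefSeq lists 2 starts for Gas5, of which the downstream one, with the longer run, is printed.
Gas5, plus strand, chr1:161035126-161035215: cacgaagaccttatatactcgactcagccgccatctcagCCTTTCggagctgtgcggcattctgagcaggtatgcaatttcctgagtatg
Snhg1, plus strand, chr19:8723447-8723536: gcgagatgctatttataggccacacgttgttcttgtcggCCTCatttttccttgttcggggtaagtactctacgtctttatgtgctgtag
Snhg8, minus strand, chr3:123508287-123508376: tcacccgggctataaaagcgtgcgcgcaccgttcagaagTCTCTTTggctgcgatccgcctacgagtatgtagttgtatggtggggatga
Snhg12, plus strand, chr4:132308638-132308727: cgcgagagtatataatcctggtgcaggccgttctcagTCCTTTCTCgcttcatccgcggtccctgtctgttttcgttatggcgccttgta
The run was 9 bases long in Snhg12, 7 in Snhg8, 6 in Gas5 and 4 in Snhg1. The other start of Gas5 had a run of 3, and Malat1 one of 2. A run of at least 6 bases was found in 16.8% of the 32851 windows of the table and in 39.5% of the 76 windows of ribosomal protein genes, and a run of at least 4 in 38.9% of all windows. These matches describe letters near annotated starts and do not show that a tract is used.

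The libraries summed to between 456180 and 496300 FPKM and held 10402 to 10763 genes at 1 FPKM or more; sequencing depth is unknown here. Nedd4 was at 2.18, 2.59 and 2.23 FPKM in Flox and at 0.618, 0.666 and 0.565 FPKM in HepKO, so the targeted gene was lower in every HepKO library (3.78-fold, limma adjusted p = 0.00148). HepKO replicate 1 stood apart: mitochondrial genes made up 24.6% of its FPKM, against 16.7% to 18.3% in the other 5 libraries. Over all genes, limma called 2583 of 12712 at an adjusted p under 0.05 (20.3%), 1186 higher (9.33%) and 1397 lower (11.0%) in HepKO, so that 45.9% of the calls were higher. That share was 59.3% after median-ratio rescaling of the libraries, with 1505 genes higher and 1032 lower.

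Of the 7 tested long noncoding RNAs, 3 passed the threshold and all 3 were higher in HepKO: Neat1, Snhg12 and Malat1. This compares with 9.33% of all genes tested that were called higher. Groups did not overlap for 4 of the 7, these 3 and Snhg1, each higher in HepKO, where 17.2% of all genes tested were higher with no overlap and 42.4% had no overlap in either direction. Under the alternatives that kept the threshold of 0.05, between 2 and 4 of the 7 were called, and without HepKO replicate 1 it was 4 of 7 (Neat1, Gas5, Snhg1 and Snhg12), with 6.59% of all genes called higher. In the authors' deposited table, the q-value was under 0.05 for the same 3 genes, Neat1 (1.73e-08), Snhg12 (0.00511) and Malat1 (0.0407), with 8.97% of its 28476 genes at that level, and the q-value of Snhg1 was 0.0508.

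**Figure D1:**
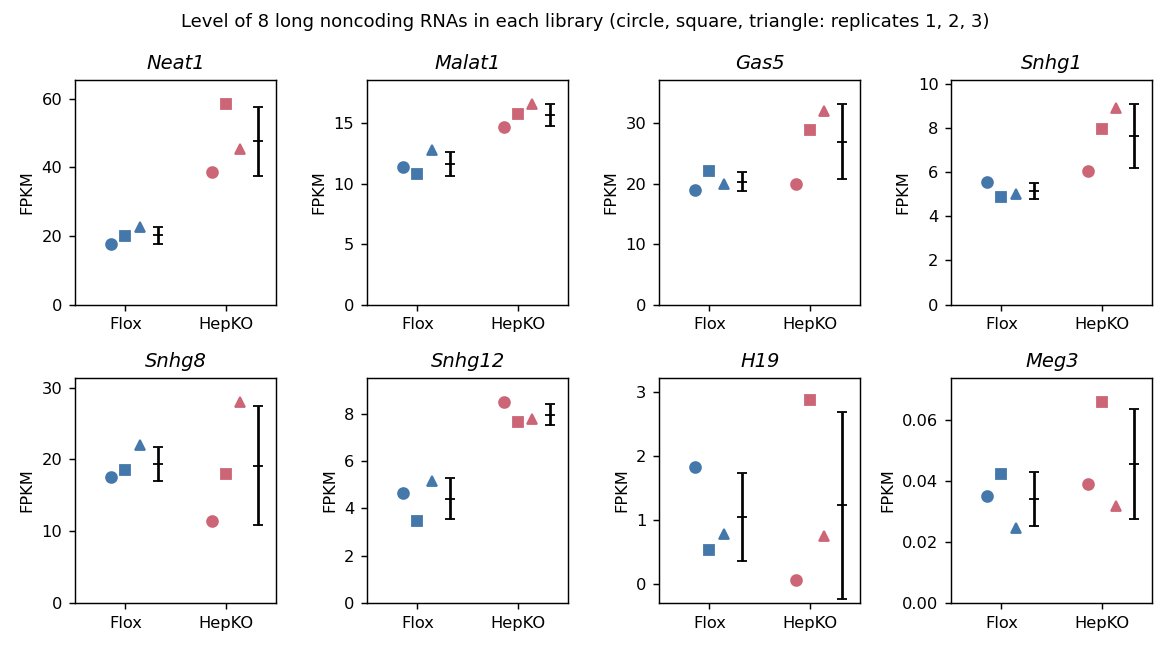
Level of each of the 8 genes in FPKM (y axis, a scale of its own per gene) in the 3 Flox (blue) and 3 HepKO (red) libraries, with circle, square and triangle for replicates 1, 2 and 3 and the bar at the side for the mean and SD of the group. The groups are apart for Neat1, Malat1, Snhg1 and Snhg12, while HepKO replicate 1 lies within the Flox range for Gas5 and under it for Snhg8 and H19.

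FPKM are scaled to length but not to how well an RNA is captured by its poly(A) tail. The order given here is therefore one of FPKM in these libraries, and the places of Neat1 and Malat1 against the other genes cannot be read as amounts of RNA. In Flox livers Gas5 averaged 20.4 ± 1.64 FPKM (SD, n = 3), Neat1 20.1 ± 2.45 and Snhg8 19.4 ± 2.31, and these did not differ beyond their spread. Malat1 followed at 11.6 ± 0.996 FPKM, clear of both neighbours. Snhg1 at 5.14 ± 0.358 and Snhg12 at 4.41 ± 0.877 FPKM overlapped each other. In HepKO livers the order was Neat1 at 47.5 ± 10.1 FPKM, Gas5 at 27.0 ± 6.27, Snhg8 at 19.1 ± 8.31, Malat1 at 15.7 ± 0.921, Snhg12 at 7.97 ± 0.458 and Snhg1 at 7.65 ± 1.46. Neat1 was clear of Gas5 there, while Gas5 overlapped Snhg8, Malat1 lay within the range of Snhg8, and Snhg12 and Snhg1 overlapped each other.

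By FPKM, the label of abundant RNAs held for 6 of the 8. Among the 5277 genes of the table that GENCODE M21 lists as long noncoding, Neat1 ranked 7 by mean FPKM, Gas5 9, Snhg8 19, Malat1 25, Snhg1 54 and Snhg12 55. That listing also holds the protein-coding gene Cct6a, at rank 5, so the ranks and class counts here are those of the listing. H19 ranked 308 and Meg3 2469, so neither is abundant in these livers. Long noncoding RNAs as a class were called higher in 63 (10.1%) and lower in 52 (8.33%) of 624 tested, with a median log2 fold change of -0.02 beside -0.06 for all genes tested. Among the 62 with a mean of at least 5 FPKM, 11 were higher (17.7%) and 6 lower (9.68%), with a median log2 fold change of 0.13. Of the 5252 genes of all kinds at that level, 9.03% were higher and 16.6% lower, with a median of -0.12. The log2 fold changes of the 624 were also ranked from the largest rise to the largest fall. Neat1 stood at rank 17, Snhg12 at 62, Snhg1 at 109, Malat1 at 135, Gas5 at 146, H19 at 315 and Snhg8 at 353.

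Neat1 (ENSMUSG00000092274, chr19:5824708-5845478, minus strand), the paraspeckle scaffold, showed the largest difference of the 7. It was at 17.8, 20.0 and 22.7 FPKM in the Flox livers and at 38.7, 58.5 and 45.4 FPKM in the HepKO livers. The lowest HepKO library was above the highest Flox library, and the spread within HepKO was wider than within Flox. The mean was 2.36-fold higher in HepKO, with a log2 fold change of 1.19 (SE 0.17, 95% interval 0.78 to 1.60, limma adjusted p = 0.00549; exact permutation p = 0.10, the smallest that 3 against 3 libraries allow). Log2 fold changes are of log2(FPKM + 1), which understates changes of low genes. Neat1 passed in each of the 16 alternative analyses at the 0.05 threshold, with limma adjusted p between 0.00302 and 0.0259, and at a threshold of 0.01. Leaving out each library in turn moved its log2 fold change between 1.03 and 1.32.

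Malat1 (ENSMUSG00000092341, chr19:5795690-5802672, minus strand), the nuclear speckle transcript, was at 11.4, 10.8 and 12.7 FPKM in Flox and at 14.7, 15.8 and 16.5 FPKM in HepKO. Every HepKO library was above every Flox library, by a smaller margin than for Neat1. The mean was 1.35-fold higher, with a log2 fold change of 0.40 (SE 0.10, 95% interval 0.15 to 0.65, limma adjusted p = 0.0396; exact permutation p = 0.10). This call was lost when any 1 of the 6 libraries was left out, with limma adjusted p between 0.0581 and 0.123, and also with no filter (0.0563) and with the libraries rescaled to a common sum (0.0899), while the direction held in all of these.

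The differences of Neat1 and Malat1 were compared within each library. The ratio of Neat1 to Malat1 in FPKM was 1.56, 1.85 and 1.78 in the Flox livers and 2.63, 3.71 and 2.74 in the HepKO livers. The groups did not overlap, and the mean ratio was 1.73 ± 0.151 in Flox and 3.03 ± 0.594 in HepKO (SD, n = 3, exact two-sided permutation p = 0.10). This ratio does not depend on the scaling of a library.

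**Figure D2:**
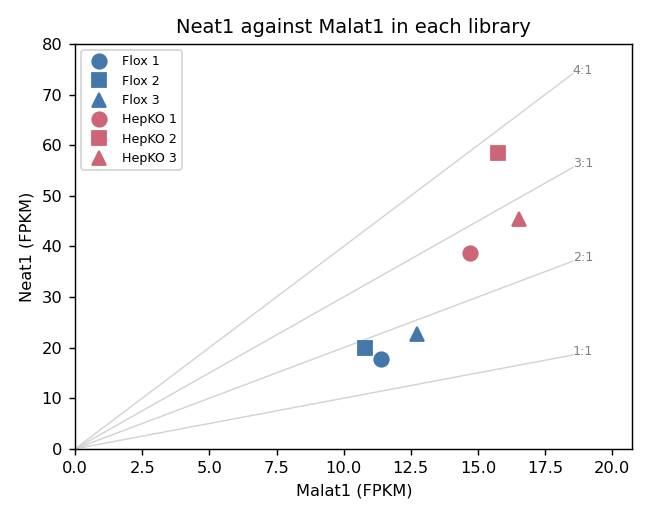
Neat1 (y axis, FPKM) against Malat1 (x axis, FPKM) in each library, Flox in blue and HepKO in red, with grey lines at fixed ratios of 1, 2, 3 and 4. The Flox libraries lie between the lines for 1 and 2, at ratios of 1.56 to 1.85, and the HepKO libraries between those for 2 and 4, at 2.63 to 3.71.

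A gene beside this pair on chromosome 19 was also measured. Frmd8, 4224 bp from Neat1, was at 3.42, 4.13 and 3.96 FPKM in Flox and at 5.39, 5.30 and 5.28 FPKM in HepKO, and rose 1.39-fold (limma adjusted p = 0.0378). The Frmd8 call was lost when any library was left out (limma adjusted p between 0.0692 and 0.107). Malat1 and Neat1 themselves lie 22036 bp apart. A short transcript annotated inside Neat1 on the same strand, Gm27505 (chr19:5844638-5844747), was at 88.0, 135 and 102 FPKM in Flox and at 183, 306 and 235 FPKM in HepKO (limma adjusted p = 0.0175). It lies in an exon of the short Neat1 isoform and reads can be shared with it, so its value is uncertain and is no separate evidence. Its call was lost without HepKO replicate 2 (limma adjusted p = 0.0521) or Flox replicate 3 (0.0600). The levels of Neat1 and Malat1 correlated with r = 0.942 over the 6 libraries, which includes the difference between the groups. By the same measure, Neat1 was most like Clic1, a chloride channel protein (r = 0.994), and Pdcd4, a repressor of translation initiation (0.993), and Malat1 most like the keratin Krt8 (0.995) and the signalling adaptor Shc1 (0.994). Among the 5251 genes compared, 110 had r over 0.95 with Neat1 and 87 with Malat1.

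Of 28 tested genes in a list of paraspeckle proteins, 4 rose and 0 fell, with a median log2 fold change of 0.02. Over all genes tested, 9.33% were called higher and 11.0% lower, with a median of -0.06. Among those that rose were Hnrnpa1 (27.3 ± 1.57 FPKM in Flox and 51.0 ± 4.83 in HepKO, n = 3, limma adjusted p = 0.00339), Pspc1, one of the core paraspeckle proteins (0.865 ± 0.220 and 2.20 ± 0.126, 0.00660), and the cold-inducible Rbm3 (29.2 ± 4.13 and 47.9 ± 2.80, 0.0127). These 3 passed in each analysis that left out 1 library. Hnrnpf, the most abundant of the list, averaged 65.3 ± 27.8 FPKM in Flox and 38.4 ± 33.1 in HepKO and did not pass. The core proteins Nono (19.7 and 18.2 FPKM) and Sfpq (20.5 and 22.9 FPKM), named after their values were seen, did not pass either.

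Of 30 tested genes in a list of nuclear speckle proteins, 5 rose and 0 fell, with a median of 0.05. Among all genes tested, 9.33% rose and 11.0% fell. Srsf11, a splicing factor, was at 9.13 ± 0.163 FPKM in Flox and 14.3 ± 1.35 in HepKO (n = 3, limma adjusted p = 0.0103). The others named by p were the splicing kinase Clk1 (7.07 and 10.6 FPKM), the exon junction factor Rnps1 (4.75 and 7.31 FPKM) and the RNA helicase Ddx39b (17.9 and 25.1 FPKM). With 1 library left out, Srsf11 passed in 6 of 6 cases, Clk1 in 2 and Rnps1 and Ddx39b in 1 each, with limma adjusted p up to 0.0824, 0.0922 and 0.0998. Srsf2, the most abundant, was at 63.0 ± 2.46 and 82.8 ± 8.71 FPKM and missed the threshold (limma adjusted p = 0.0504), and Srsf5 was at 45.6 and 42.4 FPKM. Between 1 and 7 of the 30 were higher under the alternatives at 0.05, whereas the paraspeckle count lay between 4 and 5.

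A list of factors of RNA 3′ end processing, RNA modification and RNA decay held 22 tested genes, with a median log2 fold change of -0.18. Of these, the RNase P subunit Pop5 fell from 9.47 ± 0.687 to 6.13 ± 0.731 FPKM (n = 3, limma adjusted p = 0.0198) and 0 rose. Among all genes tested, 11.0% fell and 9.33% rose. The most abundant of this list, the exonuclease Xrn2 (13.2 and 15.6 FPKM) and the poly(A)-binding protein Pabpn1 (15.1 and 12.9 FPKM), did not pass. The Pop5 call was lost without Flox replicate 2 (limma adjusted p = 0.0725) or Flox replicate 3 (0.0660).

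Among the 4 snoRNA host genes Gas5, Snhg1, Snhg8 and Snhg12, the largest difference was that of Snhg12 (ENSMUSG00000086290, chr4:132308623-132311024, plus strand), which holds 5 annotated snoRNA genes. Snora16a enters this count under separate identifiers at nearly the same coordinates. Snhg12 was at 4.64, 3.45 and 5.16 FPKM in the Flox livers and at 8.50, 7.65 and 7.77 FPKM in the HepKO livers. The HepKO libraries lay close together and all above Flox, and HepKO replicate 1 was the highest of the 3. The mean was 1.81-fold higher, with a log2 fold change of 0.74 (SE 0.14, 95% interval 0.40 to 1.08, limma adjusted p = 0.0144; exact permutation p = 0.10). Snhg12 passed in each of the 16 alternative analyses at 0.05, with limma adjusted p up to 0.0488, but not at 0.01.

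Snhg1 (ENSMUSG00000108414, chr19:8723475-8726443, plus strand), with 8 snoRNA genes inside, was at 5.55, 4.87 and 5.00 FPKM in Flox and at 6.06, 7.95 and 8.93 FPKM in HepKO. The groups did not overlap, with HepKO replicate 1 nearest to Flox. The mean was 1.49 times that of Flox, with a log2 fold change of 0.48 (SE 0.15, 95% interval 0.14 to 0.83), and it missed the threshold (limma adjusted p = 0.0598; exact permutation p = 0.10). It passed without HepKO replicate 1 (log2 fold change 0.62, limma adjusted p = 0.0261), after median-ratio rescaling (0.0212) and after rescaling without mitochondrial and the 50 most abundant genes (0.0253).

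Gas5 (ENSMUSG00000053332, chr1:161034422-161038539, plus strand), named for its rise in growth-arrested cells and host to 10 annotated snoRNA genes, was at 18.9, 22.2 and 20.0 FPKM in Flox and at 20.0, 28.9 and 32.1 FPKM in HepKO. HepKO replicates 2 and 3 were above all Flox libraries, while HepKO replicate 1 lay among them. The mean ratio was 1.32, with a log2 fold change of 0.36 (SE 0.18, 95% interval -0.07 to 0.80, limma adjusted p = 0.202; exact permutation p = 0.30). Without HepKO replicate 1 the log2 fold change was 0.56 (limma adjusted p = 0.0343). Gas5 passed in only this 1 of the 16 alternatives that kept the main threshold, with limma adjusted p up to 0.403. With each library left out in turn, the log2 fold change of Gas5 lay between 0.23 and 0.56.

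Snhg8 (ENSMUSG00000104960, chr3:123507552-123508404, minus strand), with 1 snoRNA gene inside, was at 17.5, 18.6 and 22.0 FPKM in Flox and at 11.5, 18.0 and 28.0 FPKM in HepKO. The HepKO libraries spanned both sides of the Flox range, with replicate 1 the lowest and replicate 3 the highest of all 6. The log2 fold change was -0.09 (SE 0.29, 95% interval -0.79 to 0.60, limma adjusted p = 0.851; exact permutation p = 0.90), an interval that leaves room for a change in either direction. Its sign turned without HepKO replicate 1 (0.21) and after median-ratio rescaling (0.01). The ratio of Snhg8 to Snhg12 was 3.78, 5.39 and 4.26 in Flox and 1.35, 2.35 and 3.60 in HepKO, with no overlap (exact two-sided permutation p = 0.10). This pair was not set in advance and is no separate evidence. It joins the hosts with the lowest and the highest log2 fold change among the members.

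**Figure D3:**
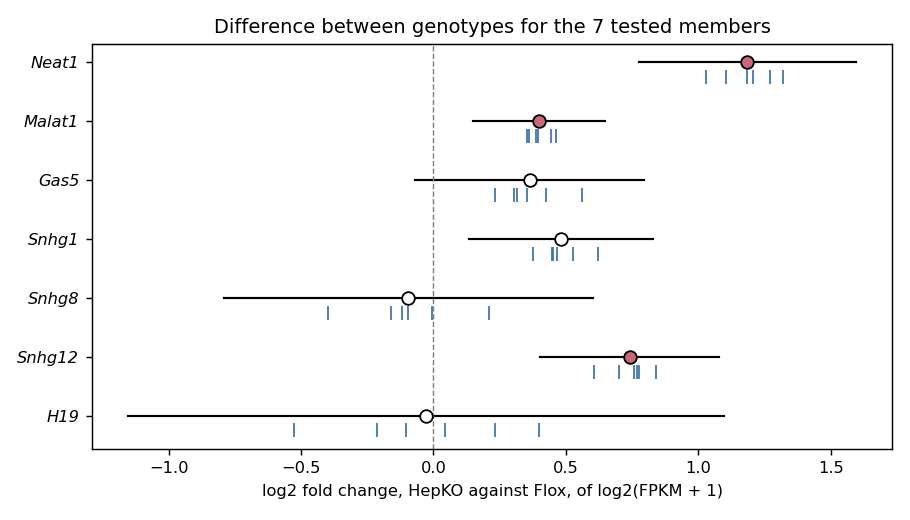
Log2 fold change of HepKO against Flox on the log2(FPKM + 1) scale (x axis) for the 7 tested genes, with the 95% interval as a line, a filled circle where the limma adjusted p was under 0.05, and blue ticks for the values with each of the 6 libraries left out in turn. The ticks of Neat1 and Snhg12 stay between 1.03 and 1.32 and between 0.61 and 0.84, and those of Snhg8 and H19 fall on both sides of 0.

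Replicate 1 of HepKO was thus the lowest of the 3 HepKO libraries for Gas5, Snhg1 and Snhg8 and the highest for Snhg12. Outside the hosts, it was also the lowest for Neat1, Malat1 and H19. It was the lowest for 9 of the 12 other snoRNA host genes tested and for 72 of 85 ribosomal protein genes (84.7%), against 47.9% of all genes tested; the ribosomal protein genes were added after values were seen. The ribosomal protein genes summed to 12081, 11221 and 12201 FPKM in Flox and to 10784, 13522 and 13858 FPKM in HepKO, with replicate 1 under every other library. The 4 host genes together summed to 46.7, 49.1 and 52.2 FPKM in Flox and to 46.0, 62.5 and 76.7 FPKM in HepKO (exact two-sided permutation p = 0.40). The same library has the mitochondrial share of 24.6%, whose part in these values was not tested.

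**Figure D4:**
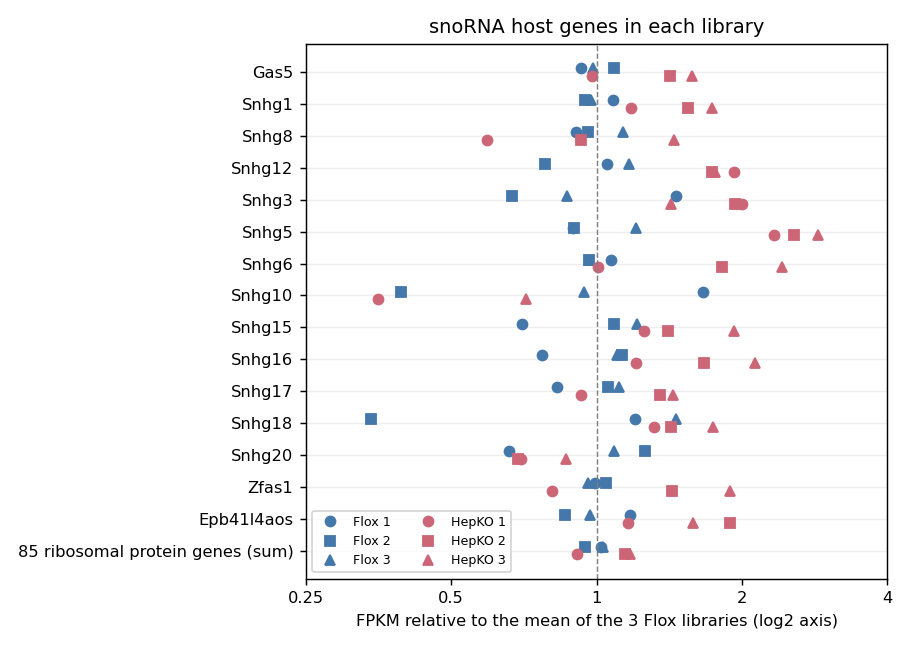
Level of each snoRNA host gene, and of the summed ribosomal protein genes, in each library relative to the mean of the 3 Flox libraries (x axis, log2 scale), with Flox in blue, HepKO in red and circle, square and triangle for replicates 1, 2 and 3. Snhg4 is left out because it is listed at 0 in 2 Flox libraries, and Snhg10 has no point for HepKO replicate 2, where it is listed at 0. HepKO replicate 1 (red circle) is the lowest of the HepKO libraries for Gas5, Snhg1, Snhg8 and the ribosomal protein sum, and the highest for Snhg12.

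Of the 12 other snoRNA host genes tested, 2 rose and 0 fell, where 9.33% of all genes tested rose. Their median log2 fold change was 0.46, beside -0.06 for all genes tested. Snhg5 was at 1.59, 1.59 and 2.15 FPKM in Flox and at 4.14, 4.56 and 5.11 FPKM in HepKO, a 2.59-fold rise with groups far apart (limma adjusted p = 0.00319). Snhg4 was listed at 0 in 2 Flox libraries and at 0.324 FPKM in the other, and was at 0.761, 3.20 and 1.07 FPKM in HepKO (limma adjusted p = 0.0476). That call was lost when any library other than HepKO replicate 1 was left out and the gene could be tested. Snhg4 passed the filter only through HepKO, as its mean was 0.108 FPKM in Flox and 1.68 FPKM in HepKO. With a filter at a mean of 1 FPKM, 1 gene of the list was higher. The most abundant, Epb41l4aos (18.8, 13.8 and 15.5 FPKM in Flox, 18.6, 30.2 and 25.4 in HepKO) and Snhg6 (11.3, 10.2 and 10.2 FPKM in Flox, 10.6, 19.2 and 25.6 in HepKO), did not pass, with limma adjusted p of 0.0818 and 0.142. In both of these HepKO replicate 1 again lay within the Flox range. Without that library 5 of the list were higher.

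The snoRNA rows inside the hosts are uncertain in these libraries, since poly(A) selection does not keep mature snoRNAs and reads can be shared with the host. Of the 9 such rows tested inside the 4 hosts, 1 was called higher and 1 lower, beside 9.33% and 11.0% of all genes tested. Gm25894, inside Snhg1, was at 0.996, 0.0602 and 0.0677 FPKM in Flox and at 2.55, 1.70 and 2.67 FPKM in HepKO, with no overlap (limma adjusted p = 0.0185). Its Flox mean of 0.375 FPKM is under the filter, which it passed only through HepKO. Gm25789, inside Gas5, was at 8.64, 9.92 and 8.49 FPKM in Flox and at 3.08, 6.16 and 5.502 FPKM in HepKO, also apart but in the opposite direction to the mean of its host (limma adjusted p = 0.0442). With 1 library left out, Gm25894 passed in 2 of 6 cases (without HepKO replicate 2 or Flox replicate 1) and Gm25789 in 1 of 6 (without HepKO replicate 1), with limma adjusted p up to 0.0640 and 0.127. Among the others, Gm22357, Gm50452 and Gm22489, inside Gas5, were higher in HepKO with no overlap but did not pass. Their means in Flox and HepKO were 18.9 and 26.3, 2.47 and 11.0, and 0.133 and 3.77 FPKM (limma adjusted p = 0.1385, 0.0693 and 0.131). Gm22489 passed the filter only through HepKO. Snord80, also inside Gas5, averaged 7.90 and 9.04 FPKM, with overlapping groups. Another entry named Snord80, at nearly the same coordinates, averaged 0.000434 and 0.000559 FPKM, so how reads were split between these entries is uncertain. Both entries count among the 10 snoRNA genes of Gas5. Snora44, inside Snhg12, was at 3.10, 3.84 and 5.20 FPKM in Flox and at 7.81, 3.65 and 5.72 FPKM in HepKO, with overlapping groups. Snora24, inside Snhg8, was at 4.47, 5.72 and 3.83 FPKM in Flox and at 3.65, 2.98 and 5.98 FPKM in HepKO, also overlapping. Zbtb37, which overlaps Gas5 on the other strand, stayed under 0.7 FPKM in each library.

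Of 18 tested snoRNP proteins, which bind and assemble snoRNAs, 2 rose and 0 fell, where 9.33% of all genes tested rose. Their median log2 fold change was 0.00. Those that rose were the assembly factors Naf1 (1.88 and 3.00 FPKM, limma adjusted p = 0.0372) and Nufip1 (2.94 and 4.60 FPKM, 0.0435). Both calls were lost with no filter (limma adjusted p = 0.0840 and 0.0918) and after rescaling to a common sum (0.0558 and 0.0732). With 1 library left out, Naf1 passed in 1 of 6 cases (without Flox replicate 1) and Nufip1 in 0 of 6, with limma adjusted p up to 0.102 and 0.0972. The core proteins Nhp2 (48.9 and 50.3 FPKM) and Nop10 (48.9 and 40.1 FPKM) did not pass. Of 20 tested factors of nonsense-mediated decay, limma called 0, with 3 at an unadjusted p under 0.05 and a median of -0.12. The most abundant of these were Magoh (26.8 and 24.7 FPKM) and Pnrc2 (19.3 and 19.7 FPKM).

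Among the genes beside the hosts, Serpinc1, which encodes antithrombin, 31959 bp from Gas5, fell from 159 ± 9.62 to 107 ± 5.16 FPKM (n = 3, limma adjusted p = 0.0104; 0.0512 without HepKO replicate 2). Slc3a2, 106 bp from Snhg1, was at 41.2 ± 1.64 FPKM in Flox and 45.5 ± 2.21 in HepKO and did not pass, and Trnau1ap, 739 bp from Snhg12, was at 5.98 ± 0.750 and 6.06 ± 0.699 FPKM. Wdr74, Mettl14, Gm4617 and Taf12, the nearest tested genes on other sides of the hosts, did not pass either.

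By likeness over the 6 libraries, Snhg12 was most like the cytolinker Plec (r = 0.995) and the Fc receptor chain Fcer1g (0.987), Snhg1 most like Wdr77 (0.990) and the collagen Col4a1 (0.987), Gas5 most like the retinol dehydrogenase Rdh10 (0.993) and Sec13 (0.979), and Snhg8 most like Akirin2 (0.975) and Gm4332 (0.972). Genes with r over 0.95 numbered 89 for Snhg12, 56 for Snhg1, 17 for Gas5 and 16 for Snhg8. Between members, r was 0.940 for Malat1 and Snhg12, 0.886 for Gas5 and Snhg1 and -0.15 for Snhg8 and Snhg12. The points of these correlations share the difference between groups, and 6 libraries give them little precision.

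H19 (ENSMUSG00000000031, chr7:142575529-142578143, minus strand), the imprinted host of miR-675, was at 1.83, 0.529 and 0.782 FPKM in Flox and at 0.0719, 2.87 and 0.758 FPKM in HepKO. HepKO held both the lowest and the highest of the 6 values. The mean was 1.05 ± 0.692 FPKM in Flox and 1.23 ± 1.46 FPKM in HepKO (SD, n = 3), while the log2 fold change was -0.03 (SE 0.47, 95% interval -1.15 to 1.10, limma adjusted p = 0.977; exact permutation p = 0.90), so mean and log2 value differ in sign. The sign of the log2 value also turned under 4 of the alternatives. The genes most like H19 were Apoa2 (r = 0.948) and the pseudogene Rpl17-ps3 (0.948), with 0 genes over 0.95. Its nearest tested neighbours, Mrpl23 (2.66 and 2.50 FPKM) and Gm49394 (0.443 and 0.603 FPKM), did not pass.

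Meg3 (ENSMUSG00000021268, chr12:109541001-109571721, plus strand) was at 0.0350, 0.0424 and 0.0247 FPKM in Flox and at 0.0388, 0.0659 and 0.0317 FPKM in HepKO, with overlapping groups (exact permutation p = 0.50). Rian and Mirg, the noncoding neighbours transcribed from the same imprinted domain, were under 0.1 FPKM in each library, as was Dlk1, the paternally read gene of that domain. Igf2, the paternally read neighbour of H19, was also under 0.1 FPKM in each library. The nearest tested neighbours of Meg3, Wars (5.88 and 7.36 FPKM) and Gm3379 (3.12 and 3.45 FPKM), did not pass.

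Of 11 tested genes in a list of imprinted genes and their regulators, 1 rose and 1 fell, with a median log2 fold change of -0.01. By comparison, 9.33% of all genes tested rose and 11.0% fell. Slc22a18, a transporter gene of the imprinted cluster beside H19, fell from 45.9 ± 3.46 to 26.2 ± 0.863 FPKM (n = 3, limma adjusted p = 0.00344), and passed without each library in turn. Mest was at 0.533 ± 0.518 and 1.75 ± 0.459 FPKM (limma adjusted p = 0.0499), a call kept in 1 of the 6 analyses that left out a library. Gnas, the second most abundant, was at 32.4 and 32.4 FPKM. Of 7 tested genes that are high in fetal liver or that silence such genes after birth, 2 rose and 0 fell, with a median of 0.25. Afp, alpha-fetoprotein, was at 1.01, 1.29 and 1.62 FPKM in Flox and at 3.40, 4.94 and 5.30 FPKM in HepKO (3.48-fold, limma adjusted p = 0.00457). Cd24a, a surface glycoprotein, was at 0.889, 0.631 and 0.712 FPKM in Flox and at 4.51, 3.87 and 2.88 FPKM in HepKO (5.05-fold, limma adjusted p = 0.00200). H19, which is silenced after birth together with Afp, thus had overlapping groups where Afp had none. Hmga1 averaged 28.5 and 32.4 FPKM and Zhx2, a postnatal repressor of Afp and H19, 3.49 and 3.11 FPKM, and neither passed.

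Of 14 tested genes in a list of other long noncoding RNAs, 1 rose and 0 fell, with a median log2 fold change of 0.11. It was 1810026B05Rik (Chaserr), a regulator of the neighbouring chromatin remodeller gene, at 0.993, 1.02 and 0.986 FPKM in Flox and 2.26, 2.87 and 1.83 FPKM in HepKO (limma adjusted p = 0.0131). The most abundant, Mir22hg (41.9 ± 14.8 and 39.4 ± 13.2 FPKM) and Sra1 (21.9 ± 1.25 and 23.9 ± 3.52 FPKM), did not pass. For scale, 9.33% of all genes tested were called higher.

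Markers of other cell types moved with genotype as well, where 9.33% of all genes tested were called higher and 11.0% lower. In bulk tissue, fewer cells of a type and less RNA per cell cannot be told apart. All 8 tested neutrophil markers were higher in HepKO. The 9 measured markers of the list summed to between 10.6 and 20.5 FPKM in Flox and between 134 and 160 FPKM in HepKO. Ly6g was listed at 0 in all 3 Flox libraries. The filter takes the mean over the 6 libraries, so a marker low in Flox can pass it through HepKO alone. Counts of markers called higher can therefore be raised by the filter itself. Of the erythroid markers, 4 of 5 were higher, with sums of 132 to 234 FPKM in Flox and 551 to 974 FPKM in HepKO. Of the monocyte and macrophage markers 4 of 7 were higher and 1 lower (86.4 to 113 and 126 to 158 FPKM), of the endothelial markers 4 of 10 higher and 1 lower (37.0 to 44.8 and 44.3 to 61.5 FPKM), of the stellate cell markers 3 of 9 higher (31.7 to 41.1 and 48.4 to 68.3 FPKM), of the cholangiocyte markers 2 of 5 higher (26.0 to 35.7 and 51.5 to 67.7 FPKM) and of the Kupffer cell markers 1 of 10 higher (68.6 to 138 and 134 to 174 FPKM). Of the 10 hepatocyte markers, 0 were higher and 2 lower, with sums of 39390 to 46242 FPKM in Flox and 43075 to 47126 FPKM in HepKO, so the defining markers of the labelled tissue were present. The T and NK cell and the B cell markers stayed under 3 FPKM in sum in each library. The B cell marker Ms4a1 was listed at 0 in all 6 libraries, and the erythroid membrane gene Slc4a1 stayed under 0.1 FPKM. Spp1 is in both the monocyte and macrophage list and the cholangiocyte list and enters both sums, so these are not separate. What part these cell types have in the rises of Neat1, Malat1 and Snhg12 was not tested.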

How the data were processed

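Poly(A) RNA of 6 mouse livers, 3 Flox and 3 HepKO, was sequenced as paired reads from a strand-marked library, per the labels' protocols. The deposited table gives FPKM per gene and library, computed by the authors; the unit is per the file headers. Per the submitters' processing notes, the tools included StringTie 1.3.4d, HISAT2 2.0.4, edgeR, DESeq2 and cutadapt 1.9, in roles that were not given in the sources used here. Per gene, the authors also deposited a p-value and a q-value. Their method, the use of strand, the genome build and the depth are likewise not given. Of the identifiers, 25619 of 28396 shared with GENCODE M21 (GRCm38) have the same coordinates there, including all 8 genes except Meg3, whose end differs.

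FPKM are not counts, so every gene averaging 0.5 FPKM or more was tested with limma 3.58.1 (R 4.3.3) on log2(FPKM + 1), genotype as the only term, variance trend, two-sided, with Benjamini-Hochberg adjustment over all 12712 genes and a threshold of 0.05. Folds are ratios of group means. Single values were also compared by exact permutation of the libraries, two-sided on group means (scipy 1.17.1). The script was tested on simulated data. Likeness is Pearson's r of log2(FPKM + 1) over 6 libraries against all genes averaging 5 FPKM or more. Sequences came from the RefSeq promoter table and GENCODE M21 transcripts; 6 of the 8 genes had a promoter entry. Of 309 entries in 9 related and 10 marker gene lists, 302 matched by symbol and 2 by an older or newer symbol.

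The members, lists and tests were chosen with earlier results of these data known. Named by rule were the members, Nedd4, in each related list the 2 most abundant genes and up to 4 genes with the smallest adjusted p past the threshold, the nearest tested neighbours and the 2 genes most like each member. Some genes that this rule would name, 3 in number, are not reported here. Genes named beyond this were chosen after their values were seen. Results were recomputed with other pseudocounts (0.1 and 0.5 FPKM), other filters, 3 rescalings, other limma settings, a threshold of 0.01, the replicate number as a block, and without each library.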

Additional observations from a re-analysis of the deposited data

How the results depend on the processing

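Of the 7 genes, Neat1 and Snhg12 kept their direction and call in all 16 alternatives at the 0.05 threshold, and Malat1, Gas5 and Snhg1 their direction. Snhg8 turned sign after median-ratio rescaling (0.0139) and without HepKO replicate 1 (0.21), its range with 1 library left out being -0.40 to 0.21, and H19 after median-ratio rescaling (0.0132) and without HepKO replicate 1 (0.40), HepKO replicate 3 (0.0438) or Flox replicate 1 (0.23), its range being -0.53 to 0.40; the cause was not tested. At a threshold of 0.01, 1 of the 7 was called, and 939 genes in all, 508 higher and 431 lower. With no filter, 899 genes were lower. Leaving out 1 library at a time gave 2 to 4 of the 7 called and 1281 to 2257 genes in all, 669 to 1035 higher and 612 to 1303 lower; the lowest counts were without HepKO replicate 2, and counts also fell by over 1.5 times without HepKO replicate 1 (1616), Flox replicate 2 (1331) and Flox replicate 3 (1483). These fits test fewer libraries.

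The labels do not say whether a replicate number marks a shared litter, batch or day. Deviations of same-numbered libraries from their group means correlated with r = 0.0029, 0.0021 and -0.0255. With 3 libraries per group these values do not settle whether the numbers pair libraries. With the number as a block, 1551 genes were called, 776 higher and 775 lower, and 2 of the 7, without Malat1 (limma adjusted p = 0.0764). Among the related lists, counts moved by over 1.5 times most often for imprinted genes, snoRNP proteins, nuclear speckle proteins and other snoRNA hosts. Depth is not given, so no statement on detection of Meg3 or the snoRNAs can be made from counts.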
